A study of Mus musculus with 20 samples.

Results

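Responsive cells are the larger of both groups into which mouse ovarian surface epithelial (OSE) cells had been clustered by their imputed expression. The other group is called cluster 1 here, and its cells were regarded as unresponsive to estradiol (E2). They were chosen here by that deposited label alone, which rests on the expression of the same cells. They made up 421 of 589 cells, with 218 E2-treated and 203 control cells. Primary OSE cultures had been kept without hormone for 48 hours and then given 100 nM E2, or ethanol at a final 0.0002% as vehicle control, for 15 days. Single cells were captured on 1 Fluidigm C1 circuit, a chip whose columns each gave 1 library, and each condition entered the chip as 1 suspension through 1 inlet, so that the 10 control columns (1 to 10) and 9 E2 columns (11, 12 and 14 to 20) measured the spread of capture and library preparation and not that between cultures or mice. Condition and suspension cannot be told apart, and the p-values below compare these suspensions. Cells of column 13 were not analysed here.

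OSE cells form the single epithelial layer over the ovary. E2 enters cells and binds estrogen receptors, transcription factors that bind DNA at estrogen response elements or through partner factors such as AP-1, and the genes so bound are switched on or off in a way that depends on the cell type. In reproductive tissues, E2 is known to act on growth factor supply, secreted proteins, lipid handling and inflammatory genes.

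The control columns held 15 to 25 responsive cells and 2614371 to 3556686 reads each, and the E2 columns held 17 to 30 cells and 2136833 to 3903973 reads. Responsive cells were 48.4% to 75% of the cells of a control column and 65.4% to 96.7% of those of an E2 column. E2-treated responsive cells were shallower. The mean of the column medians was 116505 ± 18717 reads per cell (SD, n = 9) with E2 and 149848 ± 25836 (SD, n = 10) in control (exact two-sided permutation test, adjusted p = 0.00818), with 4140 ± 387 against 4622 ± 300 genes per cell (exact permutation test, adjusted p = 0.0101). The share of reads on mitochondrial genes was 2.41% ± 0.23 with E2 and 2.10% ± 0.25 in control (exact permutation test, adjusted p = 0.0105). All 40 row barcodes of the chip were used in more than 1 column by design, and every cell identifier occurred once.

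The identity of the cells was checked against markers. Of 12 listed OSE markers, 10 were in the table, and their summed level was 5858 to 6912 CPM (counts scaled to a common column total) in control and 5165 to 6469 CPM in E2. Of 12 stromal fibroblast markers 8 were in the table and 7 were tested, with a summed level of 2545 to 3170 CPM in control and 2165 to 4919 CPM in E2. Col3a1, Dcn and Loxl1 made up most of it, whereas Mmp2 had 40 counts in all control and 36 in all E2 columns. The leukocyte marker Ptprc, the smooth muscle marker Acta2 and the endothelial marker Vwf had at most 90 counts in a condition. Other listed markers of these cell types were present in both conditions, with 15848 control and 12663 E2 counts for the endothelial marker Pecam1, 3396 and 2095 for Esam, 1937 and 1476 for the leukocyte marker Cd68, 375 and 483 for Csf1r, 455 and 256 for the smooth muscle marker Mcam, and 1025 and 1199 for the theca marker Star.

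E2 column 15 stood apart. Its log2(CPM + 1) profile had a mean Pearson correlation across genes of 0.681 with the other columns, against 0.749 to 0.800 for each of the others. It held the highest value of all columns for 2034 of 10265 genes, against 287 to 709 in any other column, and the fewest genes per cell, with a median of 3430.5. Its part in a result was examined by leaving it out.

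Between E2 and control, a small fraction of the genes tested in responsive cells passed the thresholds used here, and the largest fold changes were gains. A gene that did not pass may still have changed. With counts summed per column and edgeR's quasi-likelihood test, 141 of 10265 tested genes passed both an adjusted p of 0.05 and a log2 fold change of 0.5 in either direction and are the called genes below, 1.37% of the genes tested. Of these, 87 (0.848% of all tested) were higher and 54 (0.526%) were lower with E2. At an unadjusted p below 0.05 there were 1015 genes. Without E2 column 15, 141 genes were called, 82 higher and 59 lower, and 118 of them were among the genes called with all columns. In 42 genes (0.409% of all tested) the columns of the 2 conditions did not overlap, with every E2 column higher in 28 (0.273%) and lower in 14 (0.136%).

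**Figure D1:**
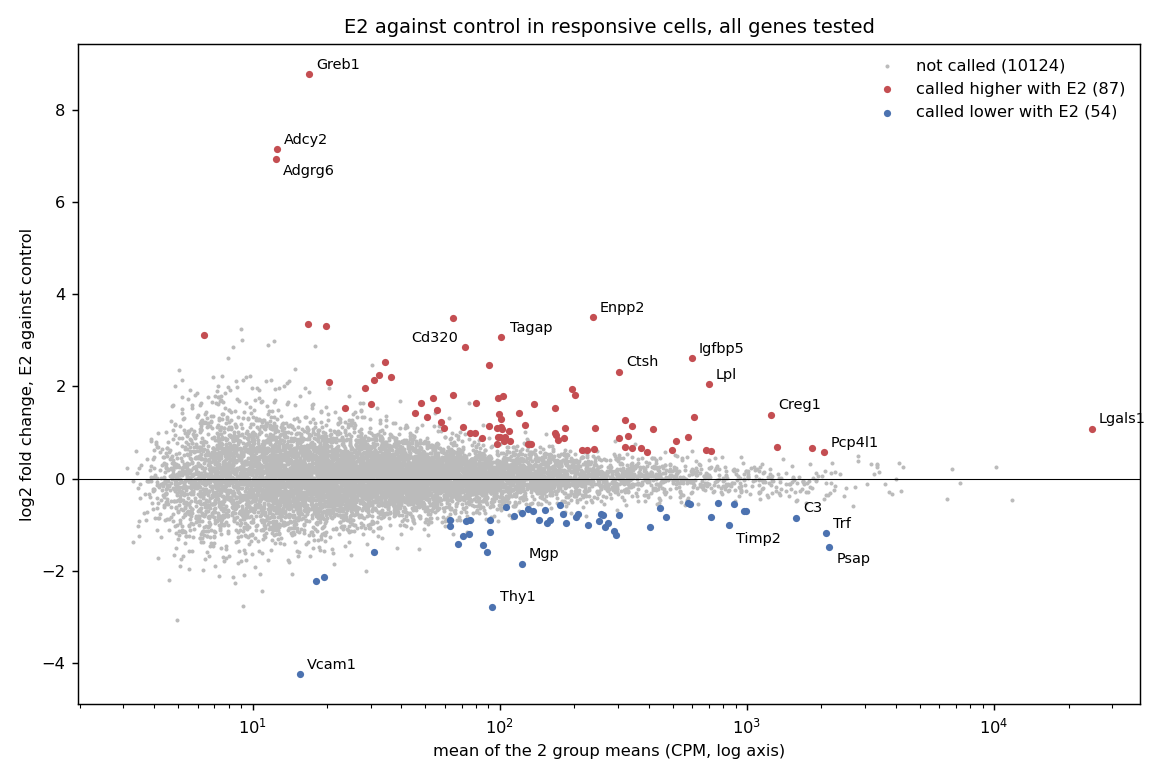
Mean level (x axis, CPM, log scale) against the log2 fold change of E2 over control (y axis) for each of the 10265 genes tested in responsive cells. Red and blue points are the 87 genes called higher and the 54 called lower with E2, and grey points were not called. The largest fold changes belong to genes of low level, and Lgals1 lies alone at the right.

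The 3 genes that were close to silent in control cells led the list. Greb1 encodes a chromatin-bound cofactor of the estrogen receptor and is a classical estrogen target. It lies on the minus strand of chromosome 12 at 16670615 to 16800886 (GRCm38). Of the RefSeq promoters (300 bases around a transcription start, GRCm38.p6), 1 of 2 for Greb1 and 1 of 2 for Cd320 held an estrogen receptor half-site. The half-site is AGGTCA, or TGACCT on the other strand. Greb1 and Cd320, a receptor for the vitamin B12 carrier, were gains with no overlap between columns. Adcy2, Adgrg6 and Tagap, larger such gains than Cd320, were not among the higher genes found with a half-site. Higher genes without a promoter matched by symbol were not searched, and Adcy2, Adgrg6 and Tagap may be among those. The 3 genes shown all held a half-site, so they do not stand for the called genes. The 1 of 2 Psap promoters with a match, for a gene among the most abundant that fell, is shown for comparison. The second promoter of each of the 3 genes held none of the motifs searched and is not shown. Capitals mark half-sites and, in Psap, an AP-1 site, TGANTCA, and the promoters are chr12:16800837-16801136 on the minus strand for Greb1, chr17:33842841-33843140 on the plus strand for Cd320 and chr10:60277378-60277677 on the plus strand for Psap.
Greb1: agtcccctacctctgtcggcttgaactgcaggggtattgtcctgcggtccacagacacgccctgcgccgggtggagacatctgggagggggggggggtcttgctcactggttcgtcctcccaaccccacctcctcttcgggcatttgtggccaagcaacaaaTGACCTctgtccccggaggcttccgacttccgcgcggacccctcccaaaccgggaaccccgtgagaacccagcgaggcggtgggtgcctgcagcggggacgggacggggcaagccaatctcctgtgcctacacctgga
Cd320: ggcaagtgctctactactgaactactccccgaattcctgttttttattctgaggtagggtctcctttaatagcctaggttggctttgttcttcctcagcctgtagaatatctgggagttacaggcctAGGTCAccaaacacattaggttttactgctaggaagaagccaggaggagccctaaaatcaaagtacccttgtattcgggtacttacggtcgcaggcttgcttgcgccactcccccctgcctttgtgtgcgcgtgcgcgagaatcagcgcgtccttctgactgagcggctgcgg
Psap: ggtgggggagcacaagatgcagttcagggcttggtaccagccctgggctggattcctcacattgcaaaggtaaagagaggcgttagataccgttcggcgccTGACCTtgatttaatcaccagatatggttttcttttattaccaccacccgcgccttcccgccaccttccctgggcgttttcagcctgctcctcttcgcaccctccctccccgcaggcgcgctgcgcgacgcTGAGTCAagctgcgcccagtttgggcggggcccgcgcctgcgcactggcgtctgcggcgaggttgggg

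Promoters could be matched by symbol for 68 of the 87 higher and 37 of the 54 lower genes. The whole palindromic estrogen response element, which holds most of the half-site, was in the promoters of 20 of 27025 symbols (0.0740%). It was in 0 of the 7858 matched symbols tested for expression, so that no called gene with a matched promoter could hold it. Called genes without a matched promoter were not searched. AGGTCA on either strand was found for 18.1% of all symbols and 14.4% of those tested, for 8 of the 68 higher genes and for 8 of the 37 lower genes. TGANTCA was found for 8.97% of all symbols and 5.75% of those tested, for 5 of the 68 higher and for 4 of the 37 lower genes. An NF-kB motif was found for 1.63% of all symbols and 1.73% of those tested, for Kitl and Msrb2 among the higher genes and for Nfkbia among the lower. These shares only count letters in 300 bases and do not speak to binding.

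Greb1 was at 0 CPM in 9 control columns and at 0.336 CPM in the tenth, and at 15.4, 35.8 and 59.3 CPM (lowest, median and highest) in the E2 columns, so that every E2 column was higher than every control column. In counts this was 1 read in all control columns and 899 in the E2 columns, a ratio of 1021 with a 95% counting interval of 183 to 40388. The fitted log2 fold change was 8.78 (SE 0.67, edgeR, adjusted p = 1.56e-09), a value that at such counts depends on the prior count. Adcy2, an adenylate cyclase that makes cyclic AMP, had 4 control and 632 E2 reads. Its E2 columns held 6.13, 23.5 and 48.8 CPM against at most 0.890 CPM in control (log2 fold change 7.15, SE 0.81, edgeR, adjusted p = 2.26e-06). Adgrg6, an adhesion G protein-coupled receptor, had 5 control reads, all in 1 column, and 655 E2 reads, with 8.91, 23.4 and 55.3 CPM in the E2 columns (log2 fold change 6.94, SE 0.83, edgeR, adjusted p = 5.32e-06). The counting intervals of the ratios were 69.8 to 661 for Adcy2 and 63.5 to 460 for Adgrg6. The intervals cover counting error only, since reads carried no molecular identifiers.

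A share of cells stands for how widely a gene was read. At 20000 reads per cell, Greb1 was read in 15.8% ± 7.6 of the responsive cells of an E2 column (SD, n = 9) and in 0 of 203 control cells, which allows a share of up to 1.48%. Adgrg6 was read in 13.2% ± 5.0 and again in 0 of 203 control cells. Adcy2 was read in 12.4% ± 7.4 with E2 and 0.417% ± 1.3 in control. Of only 42 cluster 1 cells of the E2 columns, Greb1 was read in 1 (2.38%), and Adcy2 and Adgrg6 in 0%. With all reads of each cell, Adgrg6 was read in 1 of them. So few cells leave a higher share possible. In cluster 1 cells of the control columns, Adcy2 was read in 2.38%. The 12 genes examined were the 6 largest changes in each direction in these same columns, so that a difference in share was all but fixed by their choice, and all 12 passed (exact two-sided permutation test over columns, adjusted p = 4.33e-05 to 0.00907, where the former is the smallest that the design and the adjustment gave). Enpp2 was read in 45.4% ± 6.2 of E2 cells and 11.0% ± 7.9 of control cells. Thy1 showed the opposite, with 11.7% ± 5.3 of E2 and 52.1% ± 6.9 of control cells.

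**Figure D2:**
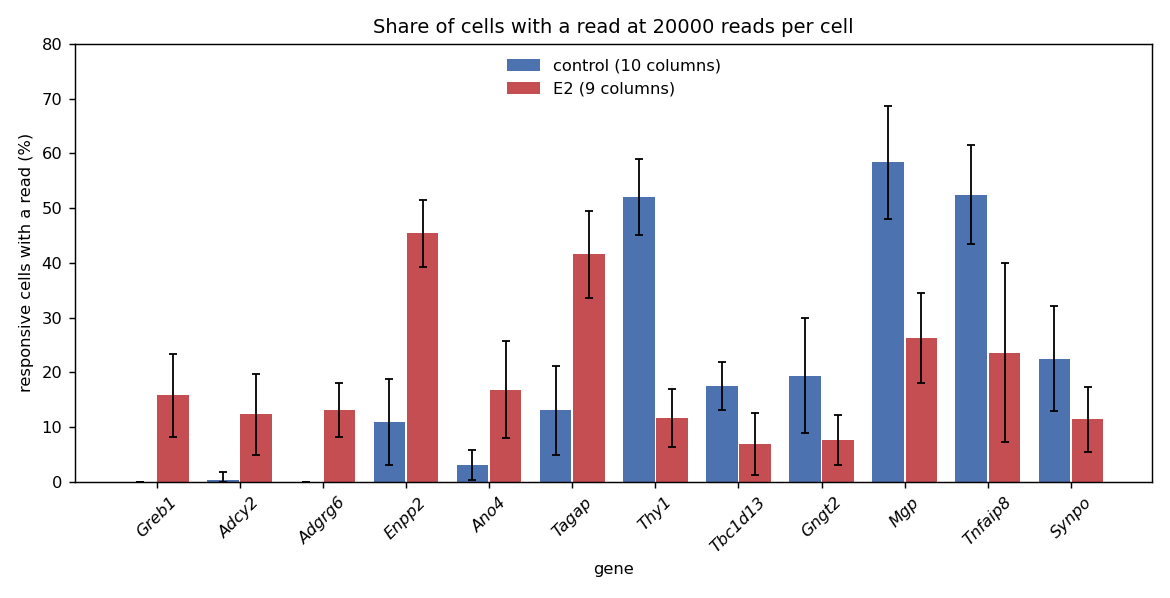
Share of responsive cells with at least 1 read (y axis, percent) for the 6 largest changes in each direction (x axis) after each cell was thinned to 20000 reads. Bars are means of 10 control and 9 E2 columns, and error bars are 1 SD, ending at 0 where the SD exceeds the mean. Greb1 and Adgrg6 had no control cell with a read, and Thy1 fell from 52.1% to 11.7%.

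Several secreted factors were among the gains. Igfbp5, a secreted protein that binds insulin-like growth factors, was at 85.6, 163 and 283 CPM in control and at 557, 899 and 1754 CPM in E2 columns. The ranges did not overlap (log2 fold change 2.62, SE 0.23, edgeR, adjusted p = 1.7e-08). Igfbp6, a second binding protein with a preference for IGF2, went the other way, from a median of 339 to 184 CPM (log2 fold change -0.96, SE 0.14, edgeR, adjusted p = 0.000126), and its highest E2 column was lower than its lowest control column. Of 11 tested genes of the IGF system, these were the 2 called (18.2%, beside 1.37% of all genes). The median log2 fold change of the list was -0.27, beside 0.02 over all genes tested. Igf2 had means of 229 CPM in control and 203 CPM in E2 (log2 fold change -0.17, adjusted p = 0.905).

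Enpp2 encodes autotaxin, the secreted enzyme that makes lysophosphatidic acid. It rose from 0.383, 18.5 and 123 CPM to 121, 393 and 980 CPM (log2 fold change 3.50, SE 0.61, edgeR, adjusted p = 0.00107). The spread within both conditions was wide, and the highest control column reached the lowest E2 column. None of the other 5 tested genes of lysophosphatidic acid signalling was called. Angptl4, a secreted inhibitor of lipoprotein lipase, was at a median of 9.09 CPM in control and 56.9 CPM in E2 (log2 fold change 2.20, SE 0.52, edgeR, adjusted p = 0.0248), and its call was lost without E2 column 20 (adjusted p = 0.062). Among 9 tested growth factor ligands, 3 were called (33.3%, beside 1.37% of all genes), all higher: Angptl4, Fgf9 and Kitl. Fgf9, a fibroblast growth factor, had medians of 44.7 and 140 CPM (log2 fold change 1.79, SE 0.31, edgeR, adjusted p = 0.00098). Kitl, the ligand of the Kit receptor, had a log2 fold change of 1.16 (adjusted p = 0.0297), fell to 0.82 without E2 column 15 and then missed the threshold (adjusted p = 0.063). It also missed the threshold without any 1 of control columns 1, 4, 6, 7 or 9 or E2 column 18, at adjusted p = 0.051 to 0.058. None of 14 tested growth factor receptors was called, and 12 of them had a log2 fold change below 0, with a median of -0.34. Without E2 column 15, the receptor gene Nrp2 was called lower.

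Lipid handling moved in a few genes. Lpl, lipoprotein lipase, which frees fatty acids from circulating lipoproteins, was at 180, 269 and 386 CPM in control and at 932, 1067 and 1538 CPM in E2 (log2 fold change 2.05, SE 0.15, edgeR, adjusted p = 7.58e-10). Soat1, which esterifies cholesterol for storage, rose from 374 to 671 CPM by medians (log2 fold change 0.82, SE 0.12, edgeR, adjusted p = 0.000105). The columns of the 2 conditions did not overlap for either gene. With Angptl4, these were the 3 of 75 tested genes of fatty acid and sterol metabolism that were called, all higher (4%, beside 1.37% of all genes). Without E2 column 15 there were 3 higher and 2 lower, Acadl and Acaa1a. Within that list the median was 0.31 for 30 genes of fatty acid oxidation and PPAR targets, 0.07 for 19 of fatty acid synthesis and -0.07 for 26 of cholesterol synthesis and transport. Acadm, which starts the oxidation of medium-chain fatty acids, was at 243 CPM in E2 column 15 and at 40.9 to 85.4 CPM in the other E2 columns, and it was not called (log2 fold change 0.94, adjusted p = 0.27).

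Lysosomal genes changed in both directions. Ctsh, a lysosomal cysteine protease, rose from 62.6, 101 and 158 CPM to 417, 464 and 667 CPM (log2 fold change 2.32, SE 0.17, edgeR, adjusted p = 7.58e-10). Creg1, a lysosomal glycoprotein, rose from 511, 683 and 844 CPM to 1369, 1774 and 2155 CPM (log2 fold change 1.39, SE 0.11, edgeR, adjusted p = 5.34e-09). Atp6v1b2, a subunit of the proton pump that acidifies lysosomes, had a log2 fold change of 1.15 (SE 0.16, edgeR, adjusted p = 7.52e-05). These groups of columns did not overlap. Psap, the precursor of the saposins that help to break down sphingolipids, was at 2319, 3022 and 5181 CPM in control and at 285, 1131 and 1689 CPM in E2 (log2 fold change -1.49, SE 0.21, edgeR, adjusted p = 0.000105). Its lowest E2 value was that of column 15, and the change was -1.36 without that column. Cd63, a tetraspanin of late endosomes, fell from a median of 1170 to 709 CPM (log2 fold change -0.69, SE 0.12, edgeR, adjusted p = 0.00147). Of 64 tested lysosomal genes, 4 were higher and 2 lower (9.38% called, beside 1.37% of all genes), and the median of the list was 0.01. The fourth higher gene was Ctsl, another cysteine protease, with a log2 fold change of 0.90 (edgeR, adjusted p = 0.00147), named after its value was seen.

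**Figure D3:**
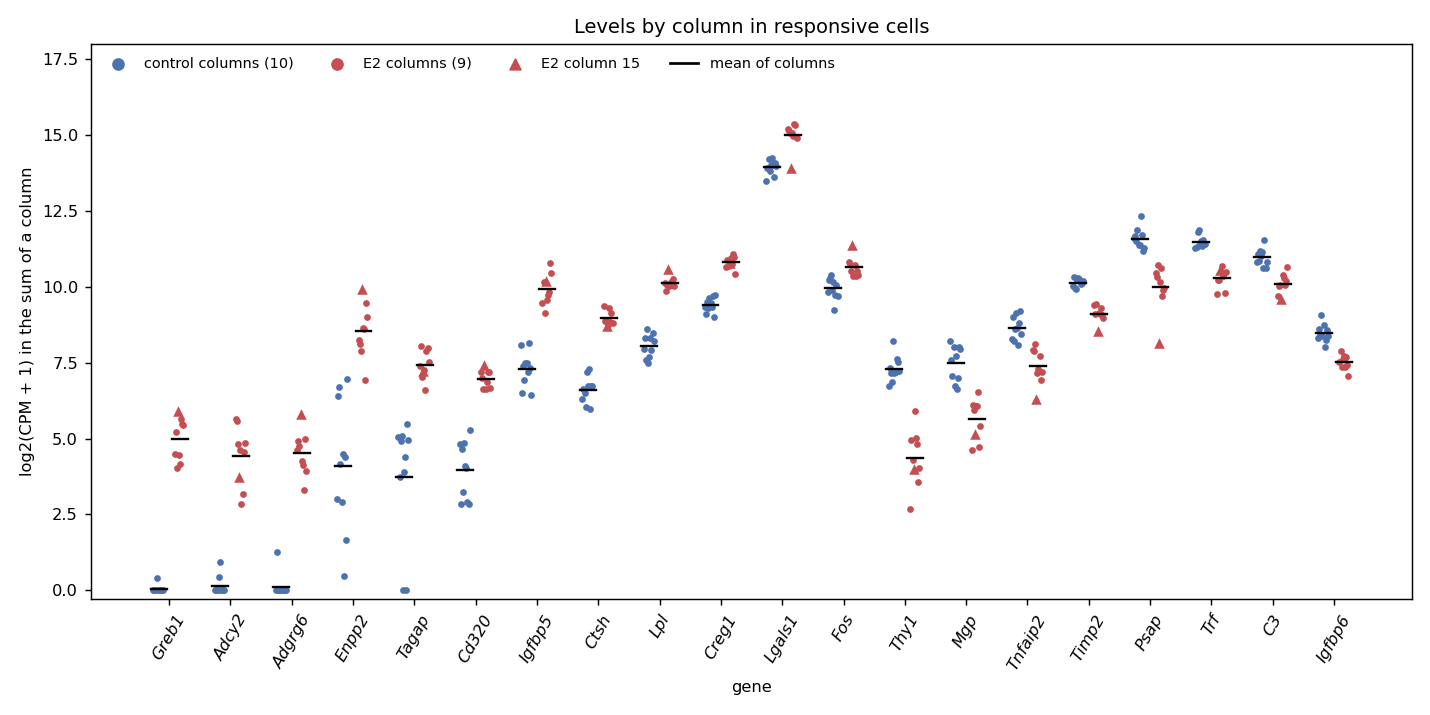
Level of 20 genes (x axis) in the responsive cells of each column (y axis, log2(CPM + 1)). Blue points are 10 control columns, red points 9 E2 columns, the triangle E2 column 15, and black lines the means of columns. Every E2 column of Greb1 and Igfbp5 is higher than every control column, while the triangle of Lgals1 lies among the control columns.

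Among abundant transcripts, Lgals1 had the largest difference in CPM. It encodes galectin-1, a secreted lectin that binds sugars of the cell surface and matrix. It was at 11387, 16215 and 19373 CPM in control and at 15467, 34253 and 42170 CPM in E2 (log2 fold change 1.08, SE 0.13, edgeR, adjusted p = 8.09e-06). The lowest E2 value was that of column 15, and the other E2 columns held 30969 to 42170 CPM, all higher than every control column. The log2 fold change was 1.18 without that column. Pcp4l1, a small protein related to Pcp4, rose by a log2 fold change of 0.58 (SE 0.09, edgeR, adjusted p = 0.000467) with no overlap of columns. Mgst1, a glutathione transferase of membranes, was called at 0.66 (adjusted p = 0.0415), but column 15 alone held 5093 CPM, and without it the change was 0.41 and below the fold threshold, at an adjusted p of 0.00502. It also missed the p threshold without any 1 of 13 further columns.

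Of the transcripts that fell, Trf, the iron carrier transferrin, went from 2457, 2778 and 3707 CPM to 866, 1310 and 1654 CPM (log2 fold change -1.18, SE 0.13, edgeR, adjusted p = 8.62e-07). Cavin2, a coat protein of caveolae, fell from a median of 1215 to 710 CPM (log2 fold change -0.71, SE 0.11, edgeR, adjusted p = 0.000148). Both had no overlap of columns. Angptl7, a secreted angiopoietin-like protein, fell from a median of 543 to 300 CPM (log2 fold change -1.05, adjusted p = 0.00226). Over all cells of a column, without the cluster labels, the change of Cavin2 was -0.47 and below the fold threshold.

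After Vcam1, which is described with the inflammatory genes, the largest fall was that of Thy1, a surface glycoprotein found on fibroblasts and other cells. Thy1 was at 105, 145 and 299 CPM in control and at 5.37, 18.4 and 59.3 CPM in E2 (log2 fold change -2.78, SE 0.32, edgeR, adjusted p = 2.38e-06), with no overlap. It was the only called gene of the 7 tested fibroblast markers (14.3%, beside 1.37% of all genes), whose summed level is given above. In cluster 1 cells at 20000 reads, Thy1 was read in 7.94% of control and 0% of E2 cells. The part of a change in cell makeup was not tested.

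Matrix genes changed in both directions. Mgp, matrix Gla protein, an inhibitor of calcification, fell from 98.5, 201 and 294 CPM to 23.9, 60.8 and 92.3 CPM (log2 fold change -1.85, SE 0.27, edgeR, adjusted p = 0.000105). Timp2, an inhibitor of matrix metalloproteinases, fell from 984, 1137 and 1281 CPM to 370, 554 and 689 CPM (log2 fold change -1.01, SE 0.11, edgeR, adjusted p = 2.23e-06). Efemp2, a fibulin needed for elastic fibres, fell by 0.96 on the log2 scale (SE 0.19, edgeR, adjusted p = 0.00394). None of these 3 had overlapping columns. The collagen chains that rose were Col12a1 by a log2 fold change of 1.41 (adjusted p = 0.0238), Col6a2 by 1.04 (adjusted p = 0.0187) and Col6a1 by 0.65 (adjusted p = 0.0232). Their columns overlapped. Col12a1 and Col6a2 lost their calls when cells were thinned to 20000 reads (adjusted p = 0.157 and 0.192), as did Col6a1 (0.057), and Col12a1 also without E2 column 15 (adjusted p = 0.057). Of 60 tested matrix genes 3 were higher and 5 lower (13.3% called, beside 1.37% of all genes), with a median of -0.12. The 2 lower genes not yet named were Col5a2 and Bgn, at log2 fold changes of -0.64 and -0.56, both named after their values were seen.

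Krt19, a simple epithelial keratin, rose from 256, 383 and 483 CPM to 408, 612 and 739 CPM (log2 fold change 0.62, SE 0.13, edgeR, adjusted p = 0.00973). The other keratins that mark OSE were lower in mean and were not called, with log2 fold changes of -0.30 for Krt7 (adjusted p = 0.379), -0.52 for Krt8 (0.104) and -0.56 for Krt18 (0.181). Wt1, a transcription factor of mesothelial cells, had means of 569 CPM in control and 671 CPM in E2 (adjusted p = 0.576). Of 19 tested keratin and OSE genes, 1 was higher and 1 lower (10.5% called, beside 1.37% of all genes), with a median of -0.01. The lower gene was C3, a complement component that is also counted in the complement list below. Without E2 column 15, the OSE marker Upk1b was called lower as well. Pkp4, a plakophilin of cell junctions, was at medians of 10.6 and 41.1 CPM (log2 fold change 2.54, adjusted p = 0.0264), but its call was lost without E2 column 17 (0.061) or 20 (0.056). Gja1, the gap junction protein connexin 43, was called at 0.69 (adjusted p = 0.0322) and lost its call without any 1 of 8 columns. These were the 2 of 29 tested junction genes called (6.90%, beside 1.37% of all genes). None of 8 tested regulators of epithelial-mesenchymal transition was called, with a median of -0.31.

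Cytoskeletal and adhesion genes gave few calls. Arhgap29, a GTPase-activating protein, was higher at 0.95 (SE 0.19, edgeR, adjusted p = 0.00585) and Cdc42, a small GTPase, at 0.91 (adjusted p = 0.0125). Cdc42 reached 1004 CPM in column 15 against a median of 364 CPM, and the change was 0.65 and still called without it. Actb, beta-actin, was lower in every E2 column than in every control column, with medians of 2330 and 1768 CPM, but its log2 fold change of -0.45 (edgeR, adjusted p = 0.00973) was within the fold threshold. Of 28 integrin and focal adhesion genes 1 was called (3.57%, beside 1.37% of all genes). This was Tns1, a tensin that links integrins to actin, at -0.90 (edgeR, adjusted p = 0.0324). Its call was lost in 9 of 19 fits that left out a column, at adjusted p up to 0.072. Tns2, a related tensin, fell by 1.43 on the log2 scale (edgeR, adjusted p = 0.0126), and Synpo, an actin-bundling protein, by 1.59 (adjusted p = 0.0245). Without control column 9 or 10, Synpo lost its call (adjusted p = 0.053 and 0.056). With cells thinned to 20000 reads, Synpo and Tns1 were not called (adjusted p = 0.213 and 0.323).

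Of the inflammatory genes in the list used here, those called were all lower. The interleukin receptor gene Il4ra, in no list, was called higher and is described below. Of 33 tested genes of inflammation and TNF signalling none was called higher and 4 were called lower (12.1%, beside 1.37% of all genes called). Of the 33, 28 had a log2 fold change below 0, with a median of -0.48 against 0.02 over all genes. The median stayed between -0.51 and -0.36 in the 7 alternative settings and was -0.53 without E2 column 15. Tnfaip2, a gene first known for its induction by TNF, fell from 269, 397 and 591 CPM to 77.3, 155 and 278 CPM (log2 fold change -1.22, SE 0.20, edgeR, adjusted p = 0.000778), with 1 E2 column reaching the lowest control column. Vcam1, which binds leukocytes, had medians of 18.1 CPM in control and 0.329 CPM in E2 (log2 fold change -4.24, SE 0.94, edgeR, adjusted p = 0.014). Its highest control column, column 8, held 111 CPM, and without that column the change was -3.71 at an adjusted p of 0.0504. Vcam1 also lost its call when limma-voom replaced edgeR (adjusted p = 0.136). Cxcl16, a chemokine, was called at -0.81 (adjusted p = 0.0417) and lost its call in 13 of 19 fits without a column, at adjusted p up to 0.089. The fourth gene was Nfkbia, the inhibitor of NF-kB that NF-kB itself induces, at -0.78 (edgeR, adjusted p = 0.00303), likewise named after its value was seen. Ccl2, a monocyte chemokine, had medians of 542 CPM in both conditions and means of 665 and 478 CPM and was not called (log2 fold change -0.48, adjusted p = 0.561). Icam1, an adhesion molecule, was not called at -0.67 (adjusted p = 0.182). Tnfaip8, a regulator of cell death induced by TNF that stood in no list, fell from a median of 126 to 42.0 CPM (log2 fold change -1.60, SE 0.33, edgeR, adjusted p = 0.00675).

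Over all cells of a column, 12 of the 70 called genes named here or by the same rule lost their call, namely Vcam1 (adjusted p = 0.091), Cxcl16 (0.238), Casp1 (0.382), Ptgis (0.227), Zfp960, Mgst1, Capns1, Prph, Cavin2, Tns1, Tns2 and Gngt2. The share of responsive cells differed between conditions as given above, and its part in these values was not tested.

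C3, the central complement component, fell from 1555, 1960 and 2957 CPM to 776, 1062 and 1624 CPM (log2 fold change -0.85, SE 0.14, edgeR, adjusted p = 0.000492). C1s1, a protease of the classical pathway, fell by 0.91 on the log2 scale (SE 0.16, edgeR, adjusted p = 0.00107). Cd55, which shields cells by breaking up complement convertases, rose from 268, 353 and 483 CPM to 558, 794 and 1677 CPM (log2 fold change 1.33, SE 0.17, edgeR, adjusted p = 9.92e-06), and every E2 column was higher than every control column. Without column 15, the highest, the change of Cd55 was 1.15. Of 14 tested complement genes, 1 was higher and 2 lower (21.4% called, beside 1.37% of all genes). None of 20 interferon-response genes was called, and 4 of them were greater than 0, with a median of -0.40. Tgtp2, an interferon-induced GTPase outside that list, fell from a median of 130 to 56.0 CPM (log2 fold change -1.15, SE 0.23, edgeR, adjusted p = 0.00637).

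In the hypoxia list 3 of 30 tested genes were called (10%, beside 1.37% of all genes), all lower, and 16 had a log2 fold change greater than 0. Ndrg1, a gene induced by hypoxia and cell differentiation, fell from 641, 970 and 1157 CPM to 354, 540 and 645 CPM (log2 fold change -0.84, SE 0.13, edgeR, adjusted p = 0.00044). Cryab, a small heat shock protein, fell from a median of 324 to 144 CPM (log2 fold change -1.0, SE 0.19, edgeR, adjusted p = 0.00299). Ptgis, prostacyclin synthase, fell from 475, 581 and 775 CPM to 173, 351 and 490 CPM (log2 fold change -0.83, SE 0.16, edgeR, adjusted p = 0.00523). The median of the list was 0.02, and Hif1a itself had medians of 141 CPM in both conditions and was not called (log2 fold change 0.35, adjusted p = 0.633). Casp1, an inflammatory caspase, was the 1 called gene of 37 of the cell death list (2.70%, beside 1.37% of all genes). It was at -0.83 (edgeR, adjusted p = 0.0135) and lost its call with cells thinned to 20000 reads (adjusted p = 0.104). None of 26 p53 targets was called.

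Esr1, the estrogen receptor alpha gene, was at 8.37, 30.3 and 78.9 CPM in control and at 6.42, 17.5 and 55.9 CPM in E2 and was not called (log2 fold change -0.41, SE 0.43, edgeR, adjusted p = 0.871). Esr2 had 82 control and 26 E2 reads and was below the filter. None of 28 tested nuclear receptors and coregulators was called (median 0.04, and -0.05 without E2 column 15). Of 24 tested genes of the estrogen response list, 3 were called, Greb1, Fos and Krt19, all higher (12.5%, beside 1.37% of all genes), and 16 were greater than 0, with a median of 0.23. Igfbp4 and Xbp1, known targets in other tissues, were not called, at 0.33 (adjusted p = 0.105) and 0.58 (adjusted p = 0.427).

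Immediate early genes, whose products form AP-1 and related factors, were mixed. Fos was at 609, 1014 and 1340 CPM in control and at 1315, 1472 and 2646 CPM in E2 (log2 fold change 0.69, SE 0.15, edgeR, adjusted p = 0.0087). Fosb rose by 1.09 (SE 0.21, edgeR, adjusted p = 0.00373). Jun had means of 60 CPM in control and 60.2 CPM in E2, Egr1 had a log2 fold change of -0.38 (adjusted p = 0.283) and Nr4a1 one of -0.79 (adjusted p = 0.0525). Of 25 tested, 2 were higher and none lower (8% called, beside 1.37% of all genes). In the MAPK list the 1 called gene of 33 (3.03%, beside 1.37% of all genes) was Map2k1, the kinase MEK1. It had medians of 64.2 and 126 CPM (log2 fold change 1.07, SE 0.24, edgeR, adjusted p = 0.0151). Sfrp1, a secreted Wnt antagonist, was the 1 called gene of 28 in the Wnt list (3.57%, beside 1.37% of all genes). It was at 0.67 (edgeR, adjusted p = 0.0461) and lost its call in 13 of 19 fits without a column, at adjusted p up to 0.099.

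Several of the largest gains belonged to no list. Tagap, a GTPase-activating protein best known in T cells, rose from 0, 24.5 and 43.1 CPM to 95, 168 and 262 CPM (log2 fold change 3.07, SE 0.49, edgeR, adjusted p = 0.000374). Cd320 rose from 6.11, 15.7 and 38.2 CPM to 97.3, 127 and 170 CPM (log2 fold change 2.85, SE 0.32, edgeR, adjusted p = 2.23e-06). Il4ra, the receptor subunit shared by interleukins 4 and 13, had medians of 24.3 and 176 CPM (log2 fold change 2.46, SE 0.43, edgeR, adjusted p = 0.00109). Ano4, a member of the anoctamin family of membrane proteins, had medians of 1.38 and 29.2 CPM (log2 fold change 3.36, adjusted p = 0.00098). Msrb2, which repairs oxidised methionine in mitochondria, rose with no overlap of columns (log2 fold change 1.97, SE 0.38, edgeR, adjusted p = 0.00374). Tacc1, a centrosome-associated protein, rose from 56.1, 72.6 and 114 CPM to 215, 315 and 419 CPM (log2 fold change 1.95, SE 0.16, edgeR, adjusted p = 5.27e-09). Zfp960, a zinc finger gene, was called at 2.10 (adjusted p = 0.00759), with no overlap of columns, and may share reads with related zinc finger genes. Rars, the arginyl-tRNA synthetase, rose from a median of 272 to 536 CPM (log2 fold change 1.07, SE 0.15, edgeR, adjusted p = 4e-05). It was the 1 called of 35 tested tRNA synthetase genes (2.86%, beside 1.37% of all genes). Slc16a1, a lactate and pyruvate carrier, was the 1 called of 21 glycolysis genes (4.76%), at 0.76 (SE 0.15, edgeR, adjusted p = 0.00576).

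Among the falls outside the lists, Pear1, an endothelial and platelet receptor, went from 67.4, 125 and 203 CPM to 16.5, 48.2 and 67.4 CPM (log2 fold change -1.43, SE 0.27, edgeR, adjusted p = 0.00238). The tetraspanins Tspan4 and Tspan8 fell, with log2 fold changes of -1.13 (adjusted p = 0.00098) and -1.06 (adjusted p = 0.00134). Mboat7, which puts arachidonic acid into phosphatidylinositol, fell from a median of 101 to 43.7 CPM (log2 fold change -1.21, SE 0.23, edgeR, adjusted p = 0.00299). Gngt2, a G protein gamma subunit, and Tbc1d13, a Rab GTPase-activating protein, were low in both conditions, with medians of 26.4 and 6.90 CPM for Gngt2 and 24.3 and 5.86 CPM for Tbc1d13. Their log2 fold changes were -2.13 (adjusted p = 0.0362) and -2.22 (adjusted p = 0.0187), without overlap of columns. Gngt2 lost its call in 8 of 19 fits without a column, at adjusted p up to 0.082, and Tbc1d13 without control column 5 (adjusted p = 0.051). Prph, the intermediate filament peripherin, fell by 0.56 (adjusted p = 0.0122) but had a log2 fold change of -0.18 over all cells without cluster labels (adjusted p = 0.636) and of -0.49, within the fold threshold, with thinned cells. Capns1, the small calpain subunit, fell by 0.53 on the log2 scale (adjusted p = 0.0417) and lost its call in 14 of 19 fits without a column, at adjusted p up to 0.088 or, without E2 column 15, through its fold (-0.46).

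**Figure D4:**
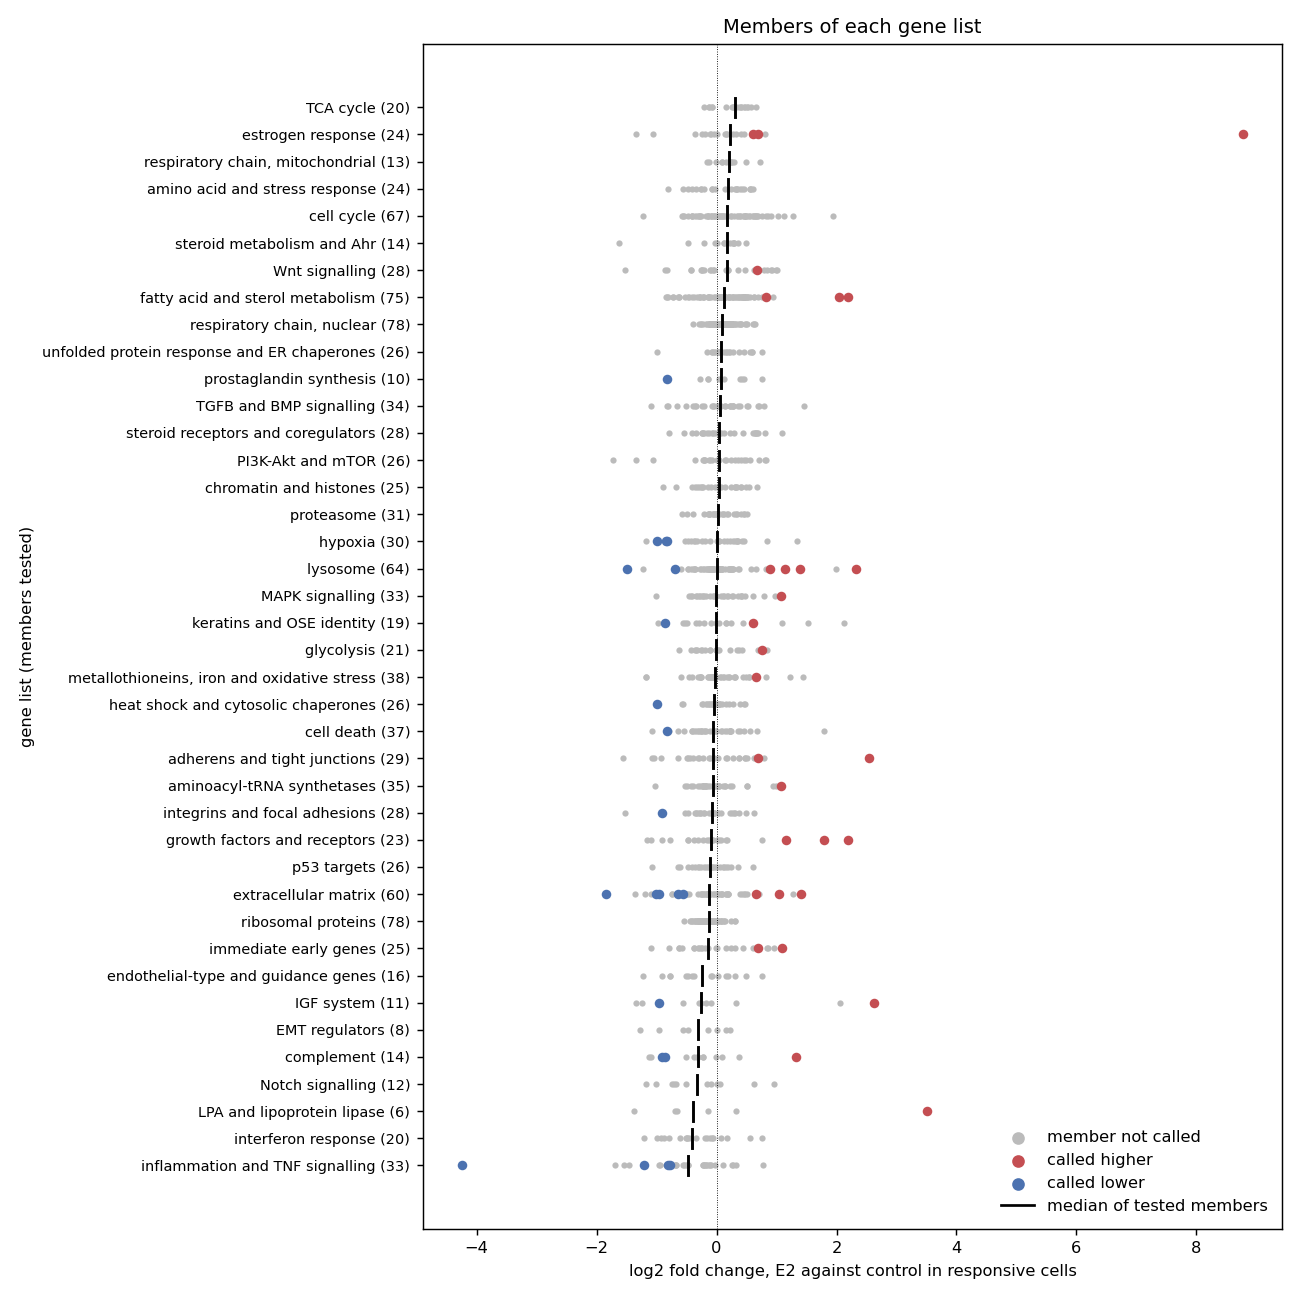
Log2 fold change of E2 over control (x axis) of each tested member of the gene lists shown (y axis, number of tested members in parentheses), ordered by the median, which is the black line. Red and blue points are members called higher or lower and grey points were not called. The list of inflammation and TNF signalling has the lowest median, -0.48, and the TCA cycle the highest, 0.31 (0.21 without E2 column 15), with no member called.

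The 38 transcripts that the study named are not independent evidence, since the study chose them on these cells. Of these, 13 were higher, 5 lower and 20 not called (47.4% called, beside 1.37% of all genes). Among those not called, Rock2, a kinase of the contractile cytoskeleton, was at 0.64 (adjusted p = 0.0517), Sema3f, a guidance ligand, at -1.22 (0.0538) and its receptor Nrp2 at -0.91 (0.0525). Without E2 column 15 all 3 were called, at 0.66, -1.08 and -1.09. Itga7, Fas, Itgav, Tln1, Alcam, Dab2, Wnt5a, Acat1, Mapk14 and Nanog were not called with all columns or without column 15, at adjusted p from 0.316 to 0.922 with all columns.

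Whether a change was particular to responsive cells was tested with the interaction of condition and cluster in a fit over both clusters, with 17 sums of cluster 1 cells. The clusters were made from the expression of these cells, so the test is not independent of how they were made. Of 11398 genes, 21 were called (0.184%), and among the genes named here Adcy2 was the 1 called, with a change 9.03 lower in cluster 1 on the log2 scale (SE 1.94, edgeR, adjusted p = 0.0341). Cluster 1 held 3 reads of Adcy2 in control and 0 in E2 columns, so that its change there rests on those reads. With the column as a replicate block, no gene was called, 892 had an unadjusted p below 0.05, and the adjusted p of Adcy2 was 0.488. DESeq2 called 98 genes, Adcy2 among them (adjusted p = 0.0228). Without E2 column 15, edgeR called 19.

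Set side by side, the changes in cluster 1 cells of the same fit were 2.86 (SE 0.61) for Igfbp5 and 1.10 (SE 0.21) for Lpl, against 2.62 and 2.05 in responsive cells. Both cluster 1 changes passed the thresholds (edgeR, adjusted p = 0.00774 and 0.00402). For Ctsh the cluster 1 value was 0.37 (SE 0.50), for Cd320 0.01 (SE 0.59) and for Enpp2 -2.30 (SE 1.24). None of these differences from responsive cells passed (adjusted p = 0.168, 0.143 and 0.0943). The Enpp2 value in cluster 1 did not pass either (edgeR, adjusted p = 0.338), and the share of cells went the other way. With all reads of each cell, Enpp2 was read in 31.0% of E2 and 11.9% of control cluster 1 cells. In thinned cells the shares were 9.52% and 5.56%. What set the sums and the shares apart was not tested. C3 and C1s1 had cluster 1 changes of 0.28 (SE 0.20) and 0.26 (SE 0.22), and the differences from responsive cells had adjusted p of 0.0589 and 0.0852. Thy1 and Mgp had negative values in both, with -3.96 (SE 1.01) and -1.39 (SE 0.52) in cluster 1. There Thy1 passed and Mgp did not (edgeR, adjusted p = 0.0251 and 0.142). Ptgis, Psap, Igfbp6 and Gngt2 also passed in cluster 1, at -2.72, -0.90, -0.95 and -4.86 (edgeR, adjusted p = 0.0139, 0.0426, 0.0435 and 0.0356). Most other called genes named here did not pass in cluster 1. A p that misses the threshold does not show that the clusters changed alike.

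**Figure D5:**
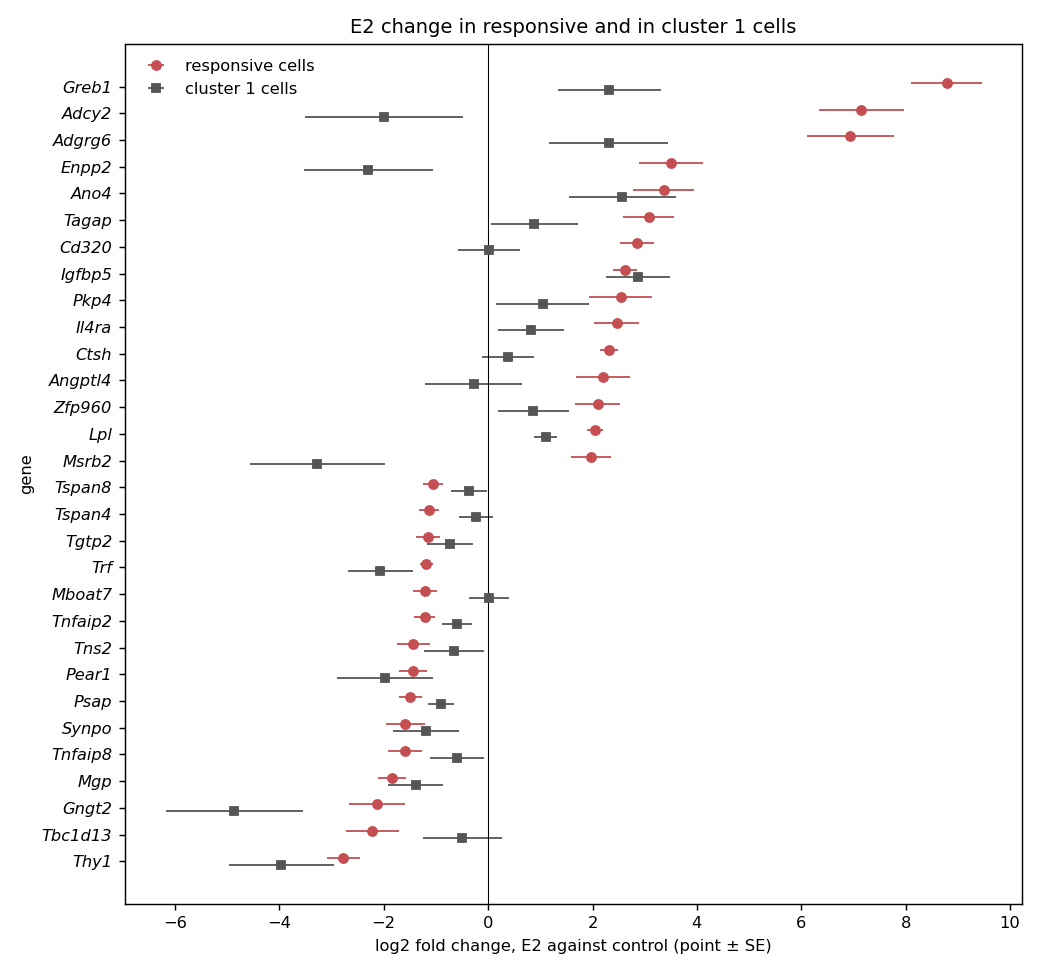
Log2 fold change of E2 over control (x axis, point with 1 SE) in responsive cells (red circles) and in cluster 1 cells (grey squares) for the 30 genes named by size (y axis). Most of the red points lie farther from 0 than the grey ones, whose errors are wider. This was largely fixed by choosing the genes for the size of their change in responsive cells. Of these genes Adcy2 alone passed the test of the difference without the replicate block.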

How the data were processed

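Single-cell RNA-seq libraries of primary mouse OSE cells were made on a Fluidigm C1 circuit. The authors quantified reads with kallisto 0.44.0 against GRCm38 and summed transcripts to genes with tximport, and the deposited values are estimated counts per gene and cell, of which 89.8% were exactly whole in responsive cells. The authors kept wells with 1 live cell after filters on reads, genes and mitochondrial reads, so that doublets were removed by imaging, and genes seen in few cells were dropped. The deposited percent of mitochondrial reads per cell was used as given. The deposited imputed log values were not used here, since imputation shares values between cells.

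Estimated counts were summed over the responsive cells of each column and rounded to whole numbers. Genes were filtered with filterByExpr, scaled by TMM and tested with the quasi-likelihood test of edgeR 4.0.16 in R 4.3.3, with Benjamini-Hochberg adjustment over 10265 of 14299 genes. SE was the absolute log2 fold change over the square root of F. A called gene passed an adjusted p of 0.05 and a log2 fold change of 0.5 in either direction. Genes were named as the 15 largest log2 fold changes in each direction among called genes whose means lay farther apart than the sum of both SDs at 20 CPM or more in the higher group, the 10 largest differences of mean CPM in each direction, up to 3 called members per list and direction, the transcripts that the study named, and the estrogen receptors. Genes and lists were chosen with earlier results of these data known, so that a larger share of called members than over all genes is partly built in. DESeq2 1.42.0, limma 3.58.1 (voom), no TMM, no filter, cells thinned to 20000 reads, all cells without labels, labels from k-means (scikit-learn 1.9.0) and leaving out each column were alternatives. Single values were compared with exact permutation tests (scipy 1.17.1). The fits were tested on simulated data. Promoters were those of RefSeq (GRCm38.p6). A few listed results are not reported here.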

Additional observations from a re-analysis of the deposited data

Results flagged for a closer look

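Among 188 groups of columns examined for the named genes and the quality measures, 30 had 1 column far from the others by Dixon's criterion, where chance flags about 1 in 20 groups. Of these, 18 were of E2 column 15. That column was the highest of the E2 columns for Adgrg6 (55.3 CPM), Lpl (1538), Fgf9 (388), Cd55 (1677), Kitl (468), Atp6v1b2 (855), Acadm (243), Cdc42 (1004), Wnt5a (134), Fos (2646), Mgst1 (5093), Acat1 (455), Hif1a (362), Dab2 (550 CPM) and Cd63 (1132). It was the lowest for Lgals1 (15467 CPM), Krt19 (408) and Efemp2 (44.6).

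Greb1 in control column 4 (0.336 CPM), Adcy2 in control column 6 (0.890) and Adgrg6 in control column 2 (1.41) stood out from control columns with a median of 0 CPM. Control columns also stood apart for Il4ra (column 8, 85.1 CPM), Msrb2 (column 7, 28), Esr1 (column 10, 78.9), Nr4a1 (column 4, 254), Psap (column 7, 5181), Thy1 (column 5, 299) and Vcam1 (column 8, 111 CPM). E2 column 16 stood apart for Thy1, at 59.3 CPM. The median reads per cell of control column 5 were 211267, beside a median of 146808 over control columns.

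The change of Adcy2 with E2 differed between clusters by -9.03 (cluster 1 minus responsive cells, edgeR interaction, adjusted p = 0.0341). It rests on 3 cluster 1 reads in control columns, both clusters came from the same columns, and with the column as a replicate block the adjusted p was 0.488 and no gene was called.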

How the results depend on the processing

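No paired analysis was possible because control and E2 columns shared no column number. DESeq2 called 234 genes, 141 higher and 93 lower, all 141 main calls among them, and the other alternatives called 133 to 177. Leaving out 1 column gave 107 to 141 calls, 64 to 86 higher and 41 to 59 lower. For the interaction with cluster, the fit with the column as a replicate block called 0 genes, DESeq2 98, sums of at least 5 cells 17 and the fit without E2 column 15, chosen after seeing the data as were the lists without that column, 19. Of 70 called named genes, 48 kept their call in every setting run for them and 0 reversed. Greb1, Adcy2, Adgrg6 and Ano4 were among those with no value for thinned cells. Nanog, not called, turned from -0.17 to 0.081 over all cells without labels. Depth limits genes near 0 in a condition, whose fold changes depend on the prior count, and with 1 suspension per condition no setting measures the spread between cultures.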

Other observations

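Several gene groups had no called member. Of 67 cell cycle genes 43 had a log2 fold change greater than 0, with a median of 0.18, which ranged from -0.05 to 0.19 over the settings and was 0.05 without E2 column 15. Of 20 genes of the TCA cycle, which oxidises acetyl groups in mitochondria, 15 were greater than 0, with a median of 0.31, or 0.21 without that column. The respiratory chain showed 57 of 78 nuclear genes greater than 0 (median 0.09, and 0.14 with 1 gene called higher without E2 column 15) and 10 of 13 mitochondrial genes (median 0.20), beside the higher share of mitochondrial reads given above, whose part was not tested. Ribosomal protein genes were greater than 0 in 12 of 78 (median -0.12), and in 27 of 78 (median -0.064) without E2 column 15. Over all genes tested, 5337 of 10265 were greater than 0.

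Also without a call were TGFB and BMP signalling (34 genes tested, median 0.06), Notch signalling (12, -0.33), PI3K-Akt and mTOR (26, 0.04), steroid metabolism and Ahr (14, 0.17), the amino acid and stress response (24, 0.19), the unfolded protein response (26, 0.08), the proteasome (31, 0.02), chromatin (25, 0.04) and guidance genes (16, -0.24). Without E2 column 15 the median was 0.00038 for the amino acid and stress response, -0.0062 for TGFB and BMP signalling, -0.025 for PI3K-Akt and mTOR and -0.040 for the proteasome, and 2 guidance genes were called lower. Prostaglandin synthesis had Ptgis lower of 10 (0.08), heat shock genes Cryab lower of 26 (-0.04), and oxidative stress genes Mgst1 higher of 38 (-0.02), which was not called without E2 column 15. The shares called in these lists were 10%, 3.85% and 2.63%, beside 1.37% of all genes.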
